A study of Homo sapiens with 4 samples.

Results

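The barcodes described here carried a high share of mitochondrial RNA in a pool of OVCAR5 cells, a human ovarian carcinoma line. A barcode was a member when over 20% of its gene UMIs (unique molecular identifiers, each standing for 1 captured RNA molecule) came from the 13 genes of the mitochondrial genome and at least 500 came from other genes. There were 2085 members among 10660 barcodes (19.6%). They were compared with 6408 barcodes that had at most 20% mitochondrial UMIs and at least 1000 genes, called comparison barcodes below. The members were chosen by their mitochondrial share and nuclear UMI count, so those levels are given as a description, with no test. The make-up of the remaining UMIs, called nuclear UMIs because their genes lie in the nuclear genome, did not enter the rule. All levels below are in CPM, the UMIs of a gene in 1000000 nuclear UMIs, summed over the barcodes of a class.

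The cultures had been exposed in vitro to medium taken from cocultures of tumor cells with T cells. Labels name 24 conditions, which combine 6 supernatant levels (none, undiluted, and diluted 5, 25, 125 or 625 times) with 4 exposure times (2, 6, 12 and 24 h). Every culture was of the same line in the same medium, and all were pooled after staining with hashtags, antibody-borne oligonucleotide tags that mark the culture of a cell. Each of 24 pairs of tags was taken as 1 culture, and a barcode was placed in a pair when the second highest of its 10 tag counts was at least 3 times the next. The tag pairs could not be matched to levels or times from the sources at hand, so nothing below is a comparison of doses or times. Nothing says that the pairs were repeats of 1 condition, and p-values measure the spread between these 24 pairs within 1 pool.

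A clear tag pair was found for 1738 members (83.4%) and for 5298 comparison barcodes (82.7%). Members numbered 41 (HTO1/HTO10) to 101 (HTO1/HTO9) per pair, with 71505 to 232727 nuclear UMIs in all, against 1649560 to 3507790 in the comparison barcodes. Barcodes that hold cells of different cultures lack a clear pair and so stayed out of the paired comparisons. Doublets within a culture were not removed. The markers fit an epithelial line in both classes: 9 of 10 epithelial markers had UMIs in members, and their summed level was 2043 to 3703 CPM over the pairs, against 2299 to 4184 CPM in comparison barcodes. All 4 B cell and all 3 erythroid markers were at 0 in members, as were 10 of 14 T cell markers, among them CD3D, CD3E, TRAC and PTPRC. The summed T cell markers nevertheless stood at 126 to 348 CPM in members and 72.4 to 310 CPM in comparison barcodes, nearly all of it IL7R, the interleukin-7 receptor chain, at 126 to 348 and 66.6 to 305 CPM.

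Mitochondrial transcripts are made and kept inside the organelle, while most messenger RNA from the nucleus lies free in the cytosol. A cell whose outer membrane has opened is known to lose cytosolic RNA before that of its mitochondria, nucleus and endoplasmic reticulum (ER), and a high mitochondrial share is therefore a common filter in single-cell work. Messenger RNAs for secreted and membrane proteins are translated on the ER, to which a hydrophobic stretch of the new protein draws the ribosome. Interferon gamma and other T cell cytokines raise antigen presentation, chemokine and adhesion genes in tumor cells.

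Members differed from comparison barcodes mainly in how little nuclear RNA they held. Their median was 1594 nuclear UMIs per barcode, against 12089. Within the pairs, the median of members lay between 1136 (HTO7/HTO9) and 2052 (HTO6/HTO10), and that of comparison barcodes between 8128 (HTO3/HTO9) and 13432 (HTO1/HTO10). The ranges do not overlap, and the comparison median was 4.25-fold (HTO3/HTO9) to 10.4-fold (HTO7/HTO9) the member median of the same pair, with a median of 7.28-fold. Mitochondrial UMIs went the other way by a small amount: 1726 per member and 1412 per comparison barcode. The ratio of members to comparison barcodes was 1.10 (HTO4/HTO10) to 1.54 (HTO2/HTO9) and was above 1 in all 24 pairs. Hashtag UMIs, which read antibody on the cell surface, had medians of 1108 and 1380 per barcode, and the third highest tag had a median of 35 in both classes.

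**Figure D1:**
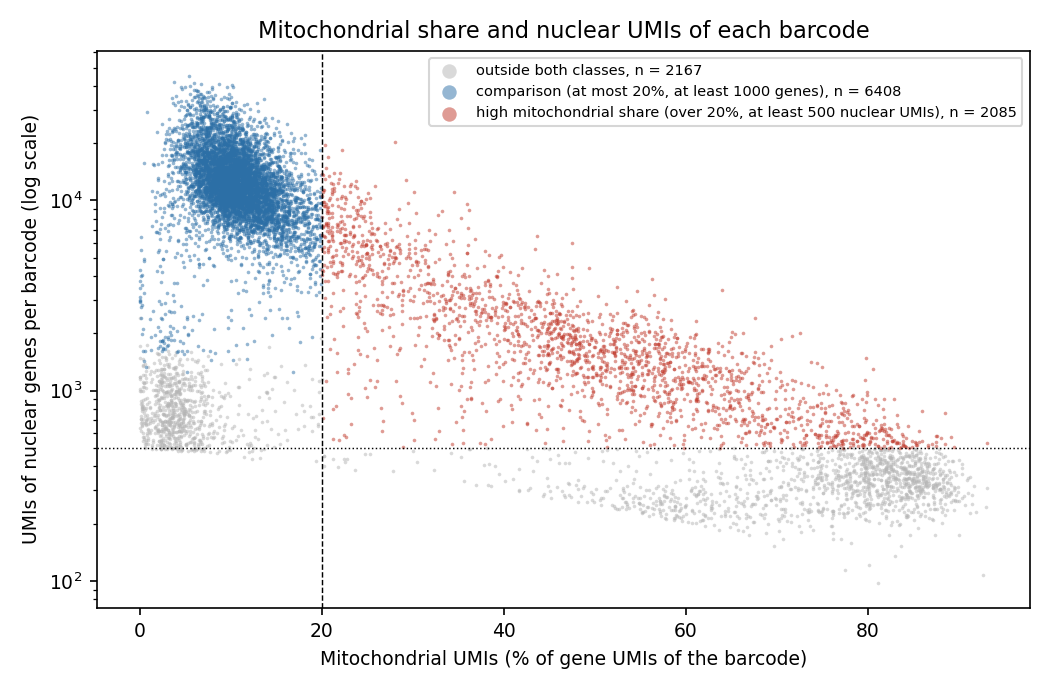
Each point is a barcode, placed by its mitochondrial share (x axis, percent of gene UMIs) and its nuclear UMIs (y axis, log scale). Comparison barcodes (blue, 6408) form a dense group around 12089 nuclear UMIs, members (red, 2085) trail from it to higher shares with falling nuclear UMIs, and grey points lie outside both classes.

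There was no gap in the mitochondrial share at the threshold. Between 18% and 20% lay 206 barcodes with a median of 7289 nuclear UMIs and MALAT1 at 6070 CPM, and between 20% and 22% lay 112 members with a median of 6911 and MALAT1 at 8098 CPM. Members just inside the rule thus had nearly the nuclear UMIs of those just outside it. Their 5th, median and 95th percentile shares were 21.8%, 48.4% and 79.6%. Of all 3438 barcodes over 20%, 60.6% held at least 500 nuclear UMIs, and 1353 did not. Of the members, 894 (42.9%) had under 1000 genes, the minimum set for the comparison barcodes.

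Members made up 24.7% of the barcodes of the 2 classes with a clear pair (1738 of 7036, 95% exact binomial interval 23.7% to 25.7%). The share ran from 15.8% in HTO1/HTO10 (interval 11.6% to 20.9%) to 38.1% in HTO6/HTO8 (32.1% to 44.3%), with a median of 23.3% over the pairs. HTO3/HTO10 and HTO5/HTO8 were the next lowest, at 15.9% and 17.0%. HTO7/HTO8, HTO1/HTO9 and HTO8/HTO9 were the next highest, at 37.4%, 36.5% and 33.8%. The intervals of these 4 highest pairs lie wholly above those of the 3 lowest. Barcodes over 20% with under 500 nuclear UMIs are left out of these shares. They numbered 16 (HTO1/HTO8) to 90 (HTO8/HTO9) per pair. HTO5/HTO8 had 70 of them beside 48 members, while HTO3/HTO10 had 19 beside 50 and HTO1/HTO10 37 beside 41. The order of the pairs with these barcodes counted was not tested. The intervals cover counting error only, and handling of a culture before pooling moves with its pair and cannot be told apart from its condition.

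**Figure D2:**
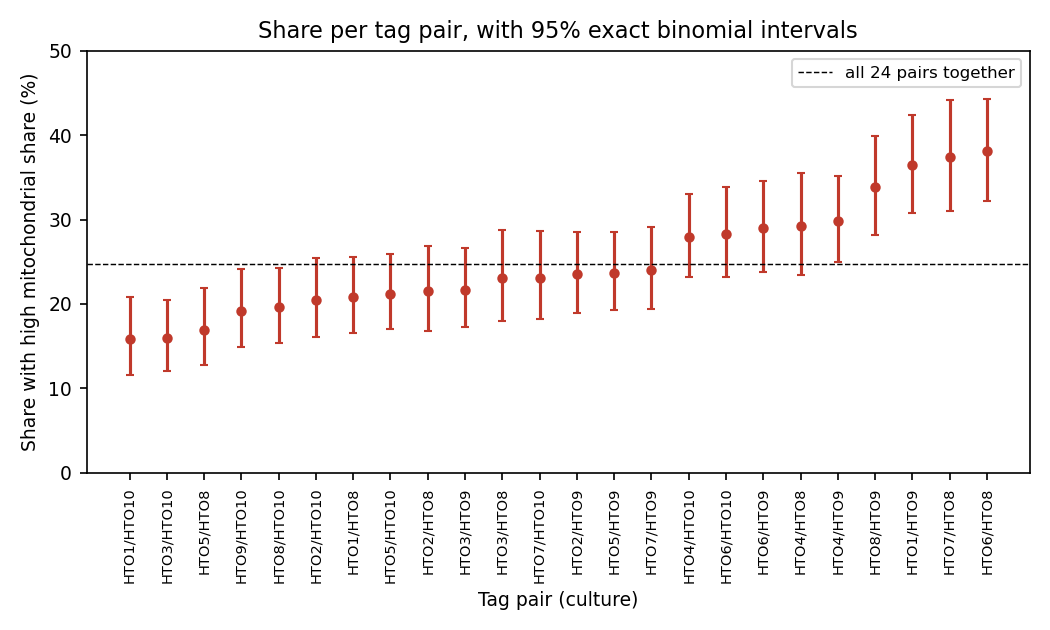
Points give the share of members (y axis, percent of members and comparison barcodes) in each of 24 tag pairs (x axis), ordered by that share, with 95% exact binomial intervals, and the dashed line is the share over all pairs, 24.7%. The lowest pair stands at 15.8% and the highest at 38.1%.

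The share of members was set against 3 levels in the comparison barcodes of the same pair, and none of the relations passed. For the interferon gamma response list, Pearson's r was 0.24 (permutation p = 0.262, adjusted p = 0.572; interval -0.18 to 0.58) and Spearman's rho 0.20 (permutation p = 0.349, adjusted p = 0.349) over 24 pairs. Without the 2 pairs farthest from the median r was 0.31. For NF-kB targets r was -0.19 (permutation p = 0.381, adjusted p = 0.572) and rho -0.29 (permutation p = 0.169, adjusted p = 0.254), with r = -0.07 without the 2 farthest pairs. For genes of G2 and mitosis r was -0.09 (permutation p = 0.697, adjusted p = 0.697) and rho -0.30 (permutation p = 0.159, adjusted p = 0.254), and r was -0.55 without the 2 farthest pairs. Adjusted values are by the Benjamini-Hochberg method over these 3 relations, and conditions that share a dose or a time are not independent. Labels name replicates 1 and 2 of both the gene expression and the hashing library of the pool. No label ties a barcode to a library, so no values within libraries could be given.

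Of the 23 gene lists, nuclear noncoding RNAs had the highest median log2 difference in members. MALAT1 (ENSG00000251562, chromosome 11, 65497688 to 65506516, GRCh38), a long noncoding RNA held in nuclear speckles, is given as a description, since it was named with the members. It stood at 17655, 30444 and 51193 CPM in members (lowest, median and highest pair) and at 2491, 3699 and 4652 CPM in comparison barcodes. The groups do not overlap, and the log2 difference was 3.09 ± 0.05 (SE), an 8.49-fold higher share of nuclear UMIs. Members also held more MALAT1 in absolute terms, 69.2 UMIs per barcode against 44.9, although they had far fewer nuclear UMIs.

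Among 6704 genes tested, 2215 were called higher in members (33%) and 1000 lower (14.9%), or 48% in either direction, at an adjusted p under 0.05 and a log2 difference of at least 0.5. "Higher" here means a larger share of the nuclear UMIs left in a member. Per barcode, the median gene kept 20.2% of its UMIs (quartiles 14.6% and 28.9%), and 27 genes had more UMIs per member than per comparison barcode. Of the called genes, 639 were higher in every one of the 24 pairs and 394 lower in every pair. Higher genes were 68.9% of all calls, but 56.8% with TMM scaling and 54.0% with DESeq2, and the median log2 difference of all genes was 0.16, 0.04 and 0.02 in these fits. A gene entered the test only with at least 20 UMIs in members and 20 CPM on average, which favours rare genes that members kept. FTX, OGT, ERAP2, CIITA, STAT2 and HLA-DPA1, for example, averaged under 20 CPM in comparison barcodes and passed through their level in members.

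NEAT1 (chromosome 11, 65422774 to 65445540), the scaffold RNA of paraspeckles, stood at 4102, 6748 and 15681 CPM in members and 747, 1109 and 3198 CPM in comparison barcodes. It rose by 2.52 ± 0.05 (SE; edgeR adjusted p = 3.51e-66), and its 16.3 UMIs per member came close to the 15.6 per comparison barcode. All 9 tested RNAs of the nuclear noncoding list, of 13 listed, were called higher, with a median log2 difference of 2.45, against 0.16 for all genes. FTX, a noncoding RNA of the X-inactivation centre, rose by 2.81 ± 0.10, from a median of 18.8 to 143 CPM. KCNQ1OT1, which lies antisense to KCNQ1, rose by 2.61 ± 0.09. Whether the counting used strand is not given in the sources used here, so reads of KCNQ1 introns cannot be told apart from it. LINC00472 (2.51 ± 0.09), AC016831.1 (2.60 ± 0.08) and SNHG4 (2.34 ± 0.08) were among the 12 largest rises, and all 3 are noncoding.

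Protein-coding genes whose RNA is known to be held in the nucleus with introns still in it also kept more than most. Of 22 such genes 19 were tested and 17 were called higher (89.5%, against 33% of all genes), with none lower and a median log2 difference of 1.26. OGT, the enzyme that attaches N-acetylglucosamine to nuclear and cytosolic proteins, rose by 2.04 ± 0.13, from a median of 16.2 to 67.7 CPM. NKTR, a cyclophilin-related gene, rose by 2.03 ± 0.08, from 42.4 to 174 CPM. Neither gene's groups overlap. PIF1, a DNA helicase, rose by 2.51 ± 0.08, and POLR2J3, a copy of an RNA polymerase II subunit gene, by 2.35 ± 0.07. Reads of POLR2J3 may be shared with its near-identical copies.

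4 of the 12 largest rises were MTRNR2L genes, nuclear near-copies of the mitochondrial 16S ribosomal RNA. MTRNR2L12 rose by 4.24 ± 0.06 and MTRNR2L8 by 3.74 ± 0.06, followed by MTRNR2L1 at 3.04 ± 0.05 and MTRNR2L10 at 2.99 ± 0.06. Reads of these genes cannot be told apart from mitochondrial ribosomal RNA at this level, so the values are uncertain as nuclear measurements. With the MTRNR2L genes counted as mitochondrial, an alternative chosen after seeing the data, 2266 genes were higher and 958 lower.

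Lists of genes for proteins that enter the ER had positive medians and, in each, no gene called lower. ER lumen and translocon genes, the folding and import machinery, had 17 of 30 called higher (56.7%, against 33% of all genes) and none lower, with a median log2 difference of 0.60. PDIA3, a disulfide isomerase, stood at 446, 601 and 890 CPM in members against 190, 223 and 344 CPM, with no overlap, a rise of 1.35 ± 0.05. CANX, the membrane-bound chaperone calnexin, rose by 0.95 ± 0.04. CALR, its soluble relative calreticulin and one of the most abundant of the list, was at 0.36 ± 0.04, higher in 24 of 24 pairs but under the 0.5 set for a call, which it passed at 2000 to 6000 nuclear UMIs (0.51).

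Plasma membrane and lysosome genes had 32 of 39 called higher (82.1%, against 33%) and none lower, with a median log2 difference of 0.93. CD44, the hyaluronan receptor, stood at 968, 1347 and 2486 CPM in members against 488, 665 and 795 CPM, without overlap, a rise of 1.09 ± 0.05. APLP2, a relative of the amyloid precursor, rose by 1.04 ± 0.04, and IGF2R, the mannose 6-phosphate receptor, by 1.57 ± 0.06. Secreted and matrix genes had 18 of 21 tested called higher (85.7%, against 33%) and none lower, with a median of 0.94. LAMA5, a laminin chain, rose by 1.81 ± 0.09, and TIMP1, an inhibitor of matrix proteases, by 0.90 ± 0.05. TIMP1 was not called at 2000 to 6000 nuclear UMIs (0.24). Summed over each of these 3 lists, members were higher than comparison barcodes in 24 of 24 pairs.

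**Figure D3:**
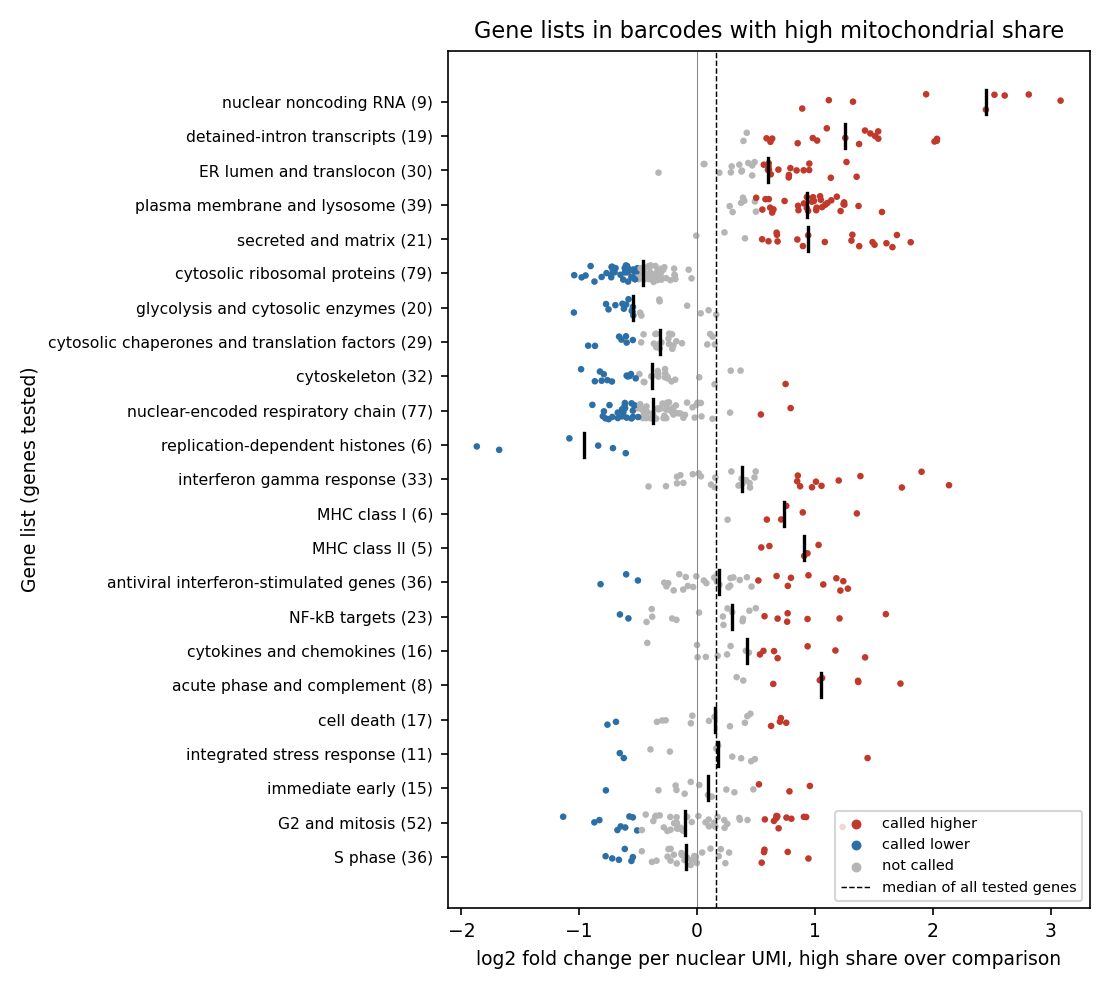
Each point is a tested gene, placed by its log2 difference between members and comparison barcodes (x axis, per nuclear UMI) in the row of its list (number of genes tested in brackets), coloured by its call. Black bars are list medians and the dashed line is the median of all tested genes, 0.16. Noncoding, ER, membrane and secreted lists lie to the right, and ribosomal, glycolytic, cytoskeletal and histone lists to the left.

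The chosen lists of genes for cytosolic proteins made up less of the nuclear UMIs of members. They do not stand for all such genes. Of 79 cytosolic ribosomal protein genes, none was called higher and 36 lower (45.6%, against 14.9% of all genes), with a median log2 difference of -0.46. Summed, they made 122480 to 173314 CPM in members and 202521 to 226951 CPM in comparison barcodes, lower in 24 of 24 pairs with no overlap. RPL12 fell most of the list, by 1.04 ± 0.05 on the log2 scale, from a median of 1893 to 917 CPM. RPLP1, the most abundant, was at -0.44 ± 0.03, lower in 24 of 24 pairs and short of a call, though it was called with TMM (-0.56), with DESeq2 (-0.58), with members over 30% (-0.63) and in barcodes of 2000 to 6000 nuclear UMIs (-0.59).

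Glycolysis and other cytosolic enzymes had 12 of 20 tested called lower (60%, against 14.9% of all genes) and none higher, with a median of -0.55. GAPDH stood at 1581, 1831 and 2278 CPM in members and 2731, 2992 and 3192 CPM in comparison barcodes, with no overlap, and fell by 0.69 ± 0.04 on the log2 scale. It was not called with members over 15% (-0.34). TPI1, triosephosphate isomerase, fell by 1.05 ± 0.05. Cytoskeletal genes had 12 of 32 called lower (37.5%, against 14.9%) and 1 higher. CFL1, the actin-severing cofilin, fell by 0.98 ± 0.04, while ACTB, at -0.49 ± 0.03, missed the call but was called with TMM (-0.61), with DESeq2 (-0.62), with members over 30% (-0.68), with the comparison at most 10% (-0.51) and with a tag margin of 5 times (-0.51).

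Chaperones and translation factors had 7 of 29 called lower (24.1%, against 14.9% of all genes) and none higher. TPT1, a tumor protein bound by translation factors, fell by 0.92 ± 0.04. HSP90AA1, the inducible cytosolic HSP90, was at 0.15 ± 0.03, and at -0.04 when members were limited to a share over 30%. Nuclear genes of the respiratory chain, whose proteins are imported by mitochondria, had 24 of 77 called lower (31.2%, against 14.9%) and 2 higher, with a median of -0.38. UQCRH, a subunit of complex III, fell by 0.89 ± 0.05, and NDUFA4, a subunit linked to complex IV, was at -0.26 ± 0.04, called lower only with members over 30% (-0.55) among the alternatives run. With members over 15%, TPT1 (-0.47) and UQCRH (-0.46) were not called.

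The 12 largest falls among genes averaging at least 100 CPM were led by a histone gene. HIST1H4C, a histone H4 gene whose reads may be shared with other H4 genes, stood at 71.7, 189 and 430 CPM in members and 223, 621 and 1017 CPM in comparison barcodes. It fell by 1.68 ± 0.08 on the log2 scale, was lower in 24 of 24 pairs, and kept 5.41% of its UMIs per barcode. All 6 tested replication-dependent histone genes, of 21 listed, were called lower, against 14.9% of all genes. DCTPP1, a nucleotide pyrophosphatase, fell by 1.22 ± 0.09, MRPL12, a mitochondrial ribosomal protein, by 1.16 ± 0.08, and CKS2, a partner of cyclin-dependent kinases, by 1.14 ± 0.08. The others were TXNL4A, GTF3A, EIF4EBP1, TOMM22, LSM2, PPDPF, HMGN2 and SRM, with falls of 1.17 to 1.07. DCTPP1 was not called at 2000 to 6000 nuclear UMIs (-0.53), nor TOMM22 with members over 15% (-0.47).

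The letters of 3 coding sequences show the property by which genes are grouped next, a run of hydrophobic residues near the start. Codons with T in the middle encode the hydrophobic residues Phe, Leu, Ile, Met and Val and are in capitals below. The first 30 codons (90 bases, 5′ to 3′) were taken from GENCODE 29 transcripts on GRCh38 for 2 retained genes and 1 lost gene, chosen after their values were seen. They are TAPBP, the peptide-loading chaperone tapasin (chromosome 6, 33299694 to 33314387, minus strand), ITGA3, integrin alpha 3 (chromosome 17, 50055968 to 50090481, plus strand) and TPI1 (chromosome 12, 6867119 to 6870948, plus strand).
TAPBP: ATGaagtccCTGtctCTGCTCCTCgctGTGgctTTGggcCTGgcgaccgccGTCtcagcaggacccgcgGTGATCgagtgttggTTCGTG
ITGA3: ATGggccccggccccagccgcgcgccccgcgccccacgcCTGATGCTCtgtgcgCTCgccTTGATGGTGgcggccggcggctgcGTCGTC
TPI1: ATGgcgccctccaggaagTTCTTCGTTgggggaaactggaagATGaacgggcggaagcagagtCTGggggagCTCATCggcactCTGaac

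In TAPBP and ITGA3, up to 9 capital codons fell within a stretch of 19 codons, against 6 in TPI1. Kyte-Doolittle hydrophobicity was averaged over each 19 residues starting within those 30 codons, so the later stretches reach past the letters shown. The highest mean was 2.06 for TAPBP and 2.32 for ITGA3, and 0.87 for TPI1. TAPBP rose by 1.20 ± 0.07 in members and ITGA3 by 1.24 ± 0.05, while TPI1 fell by 1.05 ± 0.05 on the log2 scale.

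Over all tested coding genes the same measure was used, with a segment called where 19 residues averaged at least 1.6. The cut misses some genes for secreted or ER proteins: LIF (highest mean 1.45), ERAP2 (1.47) and LAMA5 (1.45) counted as having no segment. Genes with a segment starting in the first 30 codons (752) had a median log2 difference of 0.51, with 50.4% called higher and 4.39% lower. Genes with a segment only further on (1226) had a median of 0.51, with 50.8% higher. Their transcripts were longer, at a median of 3912 bases against 2761 for genes with an early segment. Genes with no segment (4577) had a median of -0.02, with 24.2% higher and 19.2% lower. The 144 long noncoding RNAs had a median of 1.36, with 72.2% higher. These shares describe the genes and are no test, since genes are not replicates.

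Transcript length moved with the same differences. Among genes with no segment, those in the shortest length class (up to 2132 bases) had a median of -0.41, those between 2132 and 4098 bases 0.01, and longer ones 0.45. Among genes with an early segment, the same length classes had medians of 0.28, 0.55 and 0.76. Among genes with a segment only further on they were -0.17, 0.37 and 0.75. Within each length class the genes with either kind of segment thus had a higher median than those with none. Within each segment class the longer genes had the higher medians. The part of length in the differences between gene lists was not tested.

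The summed cytokine-response lists were at or above the level of the comparison barcodes of the same pair in 18 (antiviral) to 24 (MHC class II) of 24 pairs. The interferon gamma list summed to 2019, 8759 and 25442 CPM in members and 1372, 7410 and 27236 CPM in comparison barcodes, and members were higher in 22 of 24 pairs. The 2 groups overlap widely, since the response differs between pairs far more than between classes. Of 33 tested genes, 11 were called higher (33.3%, against 33% of all genes) and none lower, with a median log2 difference of 0.39.

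Within this list the genes differed. IRF1, the transcription factor at the head of the response, was at -0.04 ± 0.05 (edgeR adjusted p = 0.475), with 102, 1067 and 1934 CPM in members and 65.9, 1035 and 1941 CPM in comparison barcodes. CXCL10, a chemokine for T cells, was at 0.45 ± 0.09, short of the size for a call, and was called with DESeq2 (0.58), with the comparison at most 10% (0.65), with members over 15% (0.59) and with MTRNR2L genes counted as mitochondrial (0.51). GBP1, a guanylate-binding protein, was at 0.12 ± 0.07, and IDO1, which breaks down tryptophan, at 0.15 ± 0.10. In barcodes of 2000 to 6000 nuclear UMIs these were -0.27 and -0.30, while with DESeq2 IDO1 was called higher (0.58).

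ERAP2, an ER aminopeptidase that trims peptides for MHC class I, rose by 2.14 ± 0.12 (edgeR adjusted p = 2.90e-29). CIITA, the master regulator of MHC class II, rose by 1.91 ± 0.13, NLRC5, its counterpart for class I, by 1.74 ± 0.14, and APOL6, an apolipoprotein L, by 1.06 ± 0.06. NLRC5 was not called at 2000 to 6000 nuclear UMIs (0.84). ERAP2 stood at 8.21, 80.9 and 144 CPM in members and 4.57, 18.8 and 26.4 CPM in comparison barcodes, higher in all 24 pairs. The 11 genes of the list without a hydrophobic segment had a median of -0.12, with 1 called higher (ERAP2), and the 13 with an early segment a median of 0.50, with 6 called higher.

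Most antigen presentation genes were called higher. MHC class I had 5 of 6 called higher (83.3%, against 33% of all genes), with a median of 0.74. B2M, the soluble light chain, was at 0.26 ± 0.04, higher in 21 of 24 pairs. Reads of HLA genes may be shared among their near-identical copies. MHC class II had all 5 tested genes of 11 listed called higher (against 33%), with a median of 0.91. The other listed genes were too rare to be tested, and that filter favours rare genes that members kept. HLA-DPA1 passed it only through members, with averages of 36.3 CPM in members and 19.2 CPM in comparison barcodes. The rise was not uniform over pairs. HLA-DPA1 was higher in 13 of 24 pairs, HLA-DMA in 18 and HLA-DRA in 19, and each had 0 CPM in the lowest pair of members. CD74, the invariant chain, was higher in 23 pairs and rose by 0.54 ± 0.08, from a median of 106 to 278 CPM. It was not called with TMM (0.44), without the replicate block (0.41) or at 2000 to 6000 nuclear UMIs (0.47).

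Antiviral genes gave no common direction: 10 of 36 tested were called higher (27.8%, against 33% of all genes) and 3 lower (8.33%, against 14.9%), with a median of 0.18. IRF9 and STAT2, partners in the factor that carries the type I interferon signal, rose by 1.24 ± 0.12 and 1.28 ± 0.15. Neither was called at 2000 to 6000 nuclear UMIs (0.59 and 0.52). UBE2L6, an ISG15-conjugating enzyme, fell by 0.82 ± 0.09 on the log2 scale, but was at -0.26 with members over 15% and was not called without the replicate block (-0.76). ISG15, a ubiquitin-like modifier, was at -0.15 ± 0.06, and IFI27, a small membrane protein of mitochondria, at -0.25 ± 0.05. In barcodes of 2000 to 6000 nuclear UMIs both were called lower, at -0.74 and -0.69, and the median of the antiviral list was -0.01.

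NF-kB targets had 7 of 23 tested called higher (30.4%, against 33% of all genes) and 2 lower (8.70%, against 14.9%), with a median of 0.30. ICAM1, the adhesion receptor for leukocytes, stood at 84.2, 734 and 2504 CPM in members and 36.0, 342 and 1431 CPM in comparison barcodes. It rose by 0.94 ± 0.05 and was higher in 24 of 24 pairs. VCAM1, a related adhesion molecule, rose 3.04-fold and NFKBIZ, a nuclear NF-kB regulator, rose by 1.21 ± 0.13. TNIP1, a cytosolic inhibitor of the pathway, fell by 0.58 ± 0.07 on the log2 scale. It was not called with members over 15% (-0.27), at 2000 to 6000 nuclear UMIs (-0.32) or without the replicate block (-0.62). SOD2, which codes for the mitochondrial superoxide dismutase, was at 0.30 ± 0.07, and at -0.08 in barcodes of 2000 to 6000 nuclear UMIs.

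Cytokines and chemokines had 7 of 16 tested called higher (43.8%, against 33% of all genes) and none lower, with a median of 0.43. LIF, an interleukin-6 family cytokine, rose by 1.43 ± 0.12. CXCL8, the neutrophil chemokine, was at 0.17 ± 0.09 (edgeR adjusted p = 0.0826), and IL32, a cytokine that lacks a classical signal peptide, at -0.00 ± 0.08. Acute phase and complement genes had 6 of 8 tested called higher (75%, against 33%) and none lower, with a median of 1.05. C3, the central complement component, rose by 1.73 ± 0.11, and SAA1, serum amyloid A, by 0.65 ± 0.06. SAA1 was not called without the replicate block (0.62) or with DESeq2 (0.499).

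Over the 7 response lists together, 127 genes were tested, 51 were called higher (40.2%, against 33% of all genes) and 5 lower (3.94%, against 14.9%). By feature, 18 of 34 genes with an early segment were higher and none lower, 13 of 25 with a segment further on were higher and 2 lower, and 20 of 68 without a segment were higher and 3 lower. Those called higher without a segment include LIF, PTX3, CSF3 and ERAP2, so that class also holds genes for secreted and ER proteins. The lists were drawn up with earlier results of these data known.

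Where the interferon gamma list of a pair was lowest, members stood above the comparison barcodes of that pair, and where it was highest the classes were close. In the 4 pairs with the lowest interferon gamma level, members and comparison barcodes had 2167 and 1372 CPM (HTO4/HTO8), 2019 and 1385 (HTO7/HTO10), 2070 and 1461 (HTO1/HTO10) and 2162 and 1538 (HTO2/HTO9). In the 4 highest they had 19237 and 17578 CPM (HTO6/HTO8), 19408 and 20920 (HTO4/HTO9), 22030 and 21672 (HTO5/HTO8) and 25442 and 27236 (HTO3/HTO9). MHC class II showed the same in HTO4/HTO8, at 70.7 CPM from 9 UMIs in members against 16.8 CPM, and in HTO3/HTO9, at 2628 against 2483 CPM. MHC class I differed. Its members stood at 16035 against 12921 CPM in HTO3/HTO9, and its lowest log2 ratio, -0.05, was in HTO1/HTO10. The largest log2 ratio of the interferon gamma list, 0.86, was in HTO4/HTO10. The level of the list spanned 12.6-fold over the pairs in members and 19.9-fold in comparison barcodes.

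Free RNA of the pool was estimated by class, not by pair. KRT81 marks a minor population (25 members and 250 comparison barcodes passed its cut of at least 2 KRT81 UMIs making at least 300 CPM). Its UMIs in other barcodes were taken as a rough measure of RNA from outside the cell. The cut passed 1.20% of members and 3.90% of comparison barcodes. A cell of that population with 1 KRT81 UMI would miss it, so the values below may also hold UMIs of such cells. Among barcodes that missed the cut, KRT81 stood at 23.7 CPM in members (119 UMIs in 2060 barcodes) and 6.24 CPM in comparison barcodes (496 UMIs in 6158 barcodes). Per barcode, members thus held fewer of these UMIs, and their higher CPM is over a smaller nuclear total. Barcodes over 20% with under 500 nuclear UMIs had 185 CPM. The part of free RNA in the response levels of members was not tested.

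**Figure D4:**
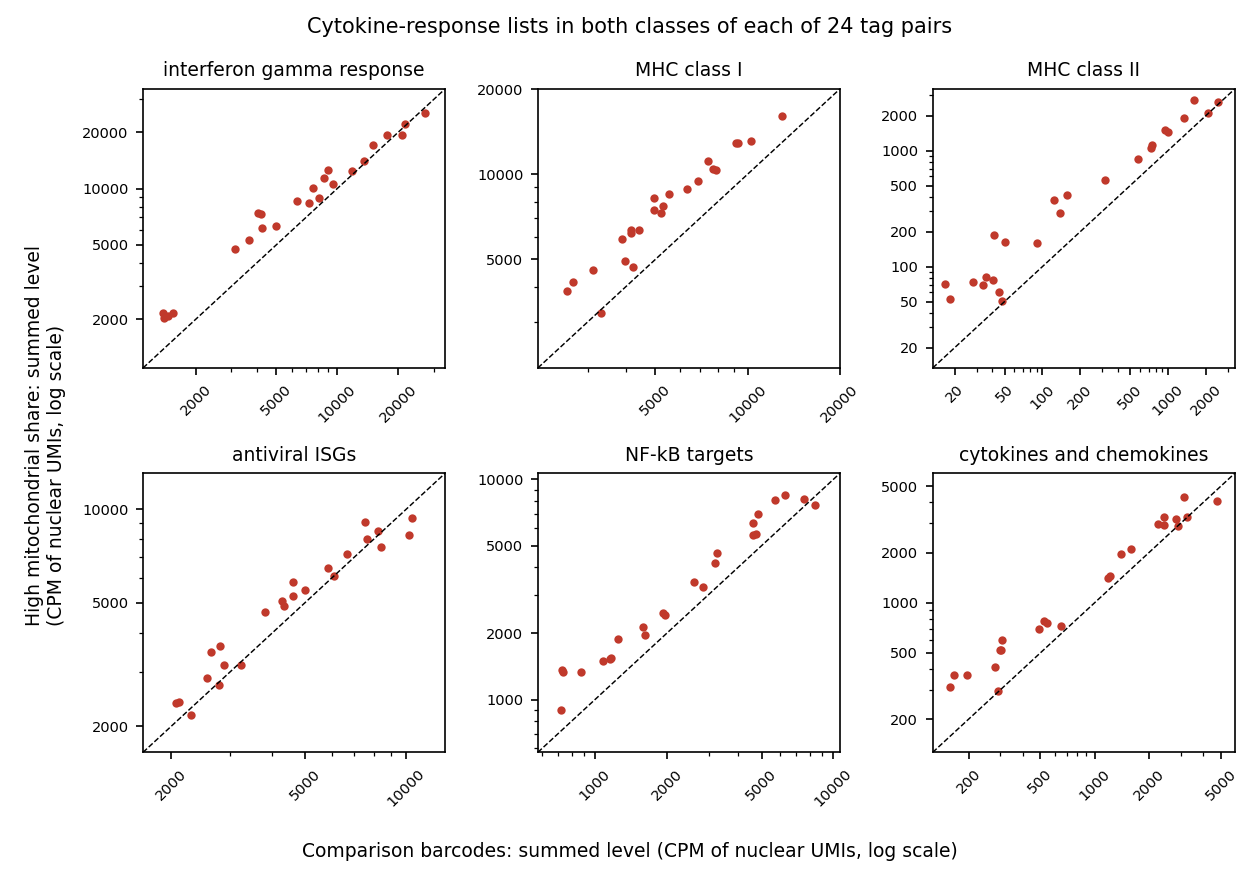
Each point is 1 of 24 tag pairs, placed by the summed level of a list in comparison barcodes (x axis) and in members (y axis), both in CPM on log scales, and the dashed line marks equal levels. Most points lie above the line. For the interferon gamma list, members stood at 2167 against 1372 CPM in HTO4/HTO8 and 25442 against 27236 CPM in HTO3/HTO9. For MHC class I they stood at 16035 against 12921 CPM in HTO3/HTO9.

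Genes of stress, death and the cell cycle gave mixed calls, to be read against 33% higher and 14.9% lower among all genes. Of 17 tested cell death genes 4 were higher (23.5%) and 2 lower (11.8%): MCL1, an anti-apoptotic BCL2 relative, rose by 0.76 ± 0.07, while the pro-apoptotic PMAIP1 and BIK fell by 0.69 ± 0.08 and 0.76 ± 0.11 on the log2 scale. Of these, PMAIP1 (-0.44), BIK (-0.29) and MCL1 (0.44) were not called with members over 15%, and BIK (-0.30) was not called at 2000 to 6000 nuclear UMIs. Of 11 genes of the integrated stress response 1 was higher (9.09%), SLC7A11, the cystine transporter (1.45 ± 0.07), and 2 lower (18.2%). Of 15 immediate early genes 3 were higher (20%), among them KLF6 (0.96 ± 0.07), and 1 lower, FOSL1 (-0.77 ± 0.05), which was not called with members over 15% (-0.43).

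Of 52 genes of G2 and mitosis, 11 were called higher (21.2%, against 33% of all genes) and 9 lower (17.3%, against 14.9%), with a median of -0.10, and the summed list was higher in members in 13 of 24 pairs. TOP2A, topoisomerase II alpha, rose by 0.65 ± 0.05 and CENPE, a large kinetochore motor, by 1.23 ± 0.07, while CKS2 fell. Of 36 S phase genes 5 were higher (13.9%) and 6 lower (16.7%): HELLS, a chromatin remodeller, rose by 0.94 ± 0.08, and TYMS, thymidylate synthase, fell by 0.72 ± 0.07 on the log2 scale. With members over 15%, TOP2A (0.26), HELLS (0.46) and TYMS (-0.47) were not called, nor was TYMS at 2000 to 6000 nuclear UMIs (-0.35). No single direction of these lists was found in members.

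Levels changed along the mitochondrial share, and not in 1 direction. Averaged over pairs with at least 3 such barcodes, MALAT1 stood at 3579 CPM at 10% to 15%, 13566 at 20% to 30%, 38671 at 30% to 50% and 54124 at 50% to 70%. It then stood at 23467 CPM at 70% to 80% and 8393 CPM above 80%. Its median per barcode went from 25 UMIs at 10% to 15% to 68 at 30% to 50%, and to 4 at 70% to 80% and 2 above 80%. Members with the highest shares thus held few UMIs of this nuclear RNA, in 163 and 80 barcodes of the last 2 bins.

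Cytosolic ribosomal protein genes ran the other way, at 209249 CPM at 10% to 15%, 114157 at 50% to 70% and 223372 above 80%. Plasma membrane and lysosome genes peaked at 30% to 50%, at 19519 CPM, against 9731 at 10% to 15% and 11038 above 80%. ER genes peaked in the same bin, at 13563 CPM. The mean of the interferon gamma list lay between 7635 and 10652 CPM from 20% upward, with an SD over pairs of 3844 to 7579 CPM. These bins held 24 pairs up to 70%, 22 at 70% to 80% and 16 above 80%. Whether the level held within each pair was not tested. Limited to members of at most 70%, an alternative chosen after seeing these bins, 2270 genes were higher and 1016 lower, close to the counts over all members.

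**Figure D5:**
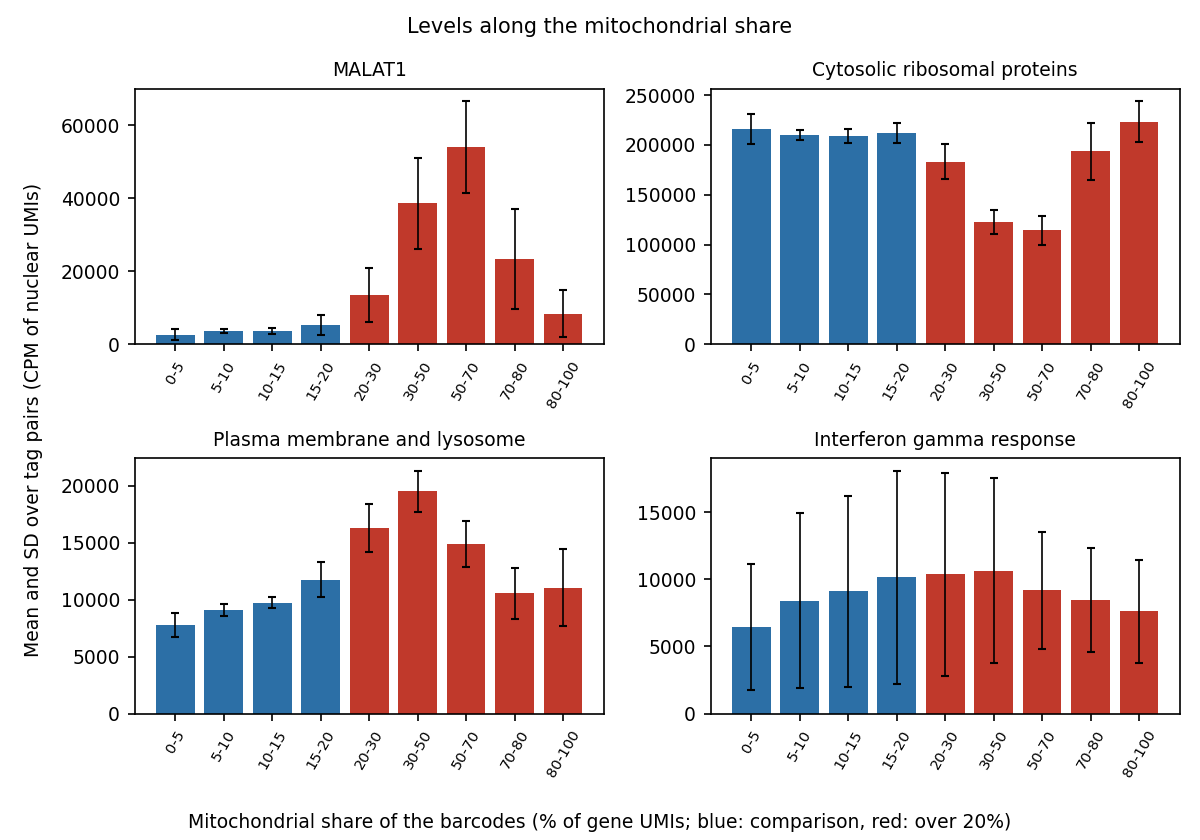
Bars give the mean and error bars the SD over tag pairs with at least 3 barcodes (16 to 24 pairs) of 4 levels (y axis, CPM) in bins of the mitochondrial share (x axis, percent), blue for comparison barcodes and red for members. MALAT1 is highest at 50% to 70% (54124) and low above 80% (8393), and ribosomal protein genes do the reverse.

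The make-up of the mitochondrial RNA itself also differed, and is described with no test. As a share of mitochondrial UMIs, MT-ATP6, a subunit of ATP synthase, had a median of 14.9% in members and 11.8% in comparison barcodes. MT-ND3, a subunit of complex I, had 8.06% and 5.40%. MT-ATP8, MT-ND4L and MT-ND6 were likewise higher in 24 of 24 pairs. MT-CO1, a subunit of cytochrome c oxidase, was lower in 24 of 24 pairs, at 10.7% against 13.9%, as were MT-CO3, at 17.9% against 19.6%, and MT-ND4. Per barcode, members held more UMIs in 24 of 24 pairs for 10 of the 13 mitochondrial genes, and MT-CO1 was the exception most often, with more in 6 pairs.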

How the data were processed

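RNA of pooled, hashtagged OVCAR5 cultures was counted by droplet-based 3′ single-cell sequencing. The authors deposited 1 matrix of UMI counts for 36602 genes and 10 hashtags in 10660 barcodes. Per the file headers, Cell Ranger 5.0.1 made them. Per the submitters' processing notes, Cell Ranger 2.1.1 and GRCh38 were used. For the cell caller's settings, the annotation and the use of introns: not given in the sources used here. All later values were computed from these counts, with Python 3.11.15 and R 4.3.3.

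UMIs were summed per tag pair and class, leaving out the 13 mitochondrial genes. Members and comparison barcodes of the same 24 pairs were compared with edgeR 4.0.16 (quasi-likelihood test, tag pair as block, library size the total of nuclear UMIs, Benjamini-Hochberg adjustment over 6704 genes). Tested genes averaged at least 20 CPM and had at least 20 UMIs in members. A call needed an adjusted p under 0.05 and a log2 difference of at least 0.5. Since both classes of a pair come from 1 culture, the block follows from the tags. The fit was tested on simulated data. A list's level is its summed CPM, and its median is over tested genes.

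Genes named were the 12 largest rises and falls among called genes averaging at least 100 CPM, and from each list the 2 most abundant and the 2 with the largest change; TAPBP, ITGA3, UBE2L6, TNIP1, GBP1, IDO1, NLRC5, APOL6 and IL7R were chosen after their values were seen. Some genes that the rule names are not reported here. The members and lists were chosen with earlier results of these data known. Hydrophobicity was computed from GENCODE 29 coding sequences, which matched 6700 genes by identifier, in place of a protein table. DESeq2 1.42.0 and TMM were among the 16 alternatives.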

Additional observations from a re-analysis of the deposited data

Results flagged for a closer look

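Barcodes outside both classes carried signal above the level of the comparison barcodes. The 1353 barcodes over 20% with under 500 nuclear UMIs had MTRNR2L12 at 21764 CPM, against 172 CPM in comparison barcodes, and MALAT1 at 3040 CPM, or 1.00 UMI per barcode. The 814 barcodes of at most 20% with under 1000 genes had MALAT1 at 17280 CPM, against 3568 CPM in comparison barcodes, a median mitochondrial share of 4.01% and a clear tag pair in 21.7%. Neither set entered a comparison.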

How the results depend on the processing

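The share of members, 24.7%, depends on the rule. It was 21.5% with members over 30%, 32.8% with members over 15% and comparison barcodes at most 15%, 19.3% with at least 1000 nuclear UMIs, 15.9% for members with at least 1000 genes, 43.3% against comparison barcodes at most 10% and 22.01% for members at most 70%. Counts of 2215 higher and 1000 lower genes became 1063 and 150 with members over 15% and comparison barcodes at most 15%, of which 1051 and 144 had been called before. They became 1167 and 535 when both classes were limited to 2000 to 6000 nuclear UMIs, which left 10 pairs, and 6271 higher of 24440 tested with no filter on low counts. Lower genes numbered 1395 with TMM, 1497 with DESeq2 and 1414 with members over 30%. Without the replicate block, 2187 were higher and 1004 lower. Without HTO3/HTO9 they were 2246 and 1038. The median of the antiviral list was -0.00826 at 2000 to 6000 nuclear UMIs, and that of acute phase and complement genes 0.69 with members over 15%. The other 110 of 112 medians of the 7 response lists under alternatives kept their direction within 1 SD over pairs. Of 128 medians of 8 other lists, 24 moved by more than that and none changed sign. With members over 15%, ribosomal protein genes were at -0.20, glycolysis at -0.26, cytoskeleton at -0.20 and respiratory chain genes at -0.13; with members over 30% they were at -0.72, -0.82, -0.60 and -0.57.

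Of 83 genes followed under 16 alternatives, 21 lost a call at least once, 14 of them with members over 15%, and 8 gained one. IL7R, for example, was not called with members over 15% (0.41). In all, 9 changed sign at least once, none of them called over all members. IL32 stood at 0.22 (members over 15%), 0.13 (comparison at most 10%), 0.0341 (without HTO3/HTO9), 0.0636 (DESeq2), 0.000943 (tag margin of 5 times) and 0.00719 (MTRNR2L genes as mitochondrial). IDO1 was at -0.30 (2000 to 6000 UMIs) and -0.0901 (no replicate block). At 2000 to 6000 UMIs GBP1 was at -0.27 and SOD2 at -0.0767. With members over 15%, ISG15 was at 0.15 and IFI27 at 0.0921, and with members over 30% HSP90AA1 was at -0.0397. With the comparison at most 10%, IRF1 was at 0.0111 and CXCL8 at -0.17. Except where the alternative itself tests fewer pairs or more genes, the cause was not tested. Members gave 71505 to 232727 nuclear UMIs a pair, so genes near 20 CPM rest on few UMIs per pair.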
